A study of Sus scrofa with 24 samples.

Results

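The genes described here are 9 effector genes that interferons switch on, RSAD2, IFI44L, MX1, MX2, ISG15, IFIT1, IFIT3, OAS2 and GBP2. They were taken by symbol from a table of 20674 pig genes, all 9 were found, and all 9 passed the filter on low counts in both tissues. RNA-seq was available for ileal and colonic tissue of female sows in a trial of dietary fibre and of N-carbamylglutamate (NCG), an analogue of the urea cycle activator N-acetylglutamate. The diets began at breeding and ran through the 114 days of gestation, with 100 sows per diet. The diet called LF held 3.73% crude fibre, L+N was that diet with 0.05% NCG, HF held 7.46% crude fibre, and H+N was HF with 0.05% NCG. With 4 diets and both tissues there were 8 groups of 3 libraries, 12 per tissue and 24 in all. Nothing in the labels ties a library to a sow, within a group or across tissues. The p-values therefore reflect only how far these libraries differ from each other, which may be technical.

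Cells release interferons when their sensors meet viral nucleic acid. Type I and type III interferons act through JAK-STAT signalling and switch on a shared set of target genes, whose products block virus replication at several steps. In the gut, type III interferon acts mainly on epithelial cells, while interferon gamma from T and NK cells induces an overlapping set that includes the guanylate-binding proteins. The labels do not say whether any of these sows carried an infection.

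The genes lie on 5 chromosomes of the build Sscrofa11.1. RSAD2 is at chr3:128880853-128897809 and GBP2 at chr4:127387222-127408729. ISG15 (chr6:63363201-63364211) and IFI44L (chr6:134660230-134679212) share a chromosome but are far apart. MX2 (chr13:204798633-204821612) and MX1 (chr13:204843049-204868927) are neighbours, as are IFIT3 (chr14:101214730-101225169) and IFIT1 (chr14:101237403-101249486), while OAS2 is at chr14:38827667-38847697. IFIT1 and IFIT3 lie inside the gene model of LIPA on the other strand, and ISG15 overlaps LOC110261384. Whether strand was used in counting is not given in the sources used here, so reads of such partners cannot be told apart.

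Ileum libraries held 11951729 to 19896941 counts in total and colon libraries 14843272 to 18575695. Summed markers of small-intestinal enterocytes (7 genes) were 1415 to 11600 CPM, counts scaled to a common library size, in the ileum and 10.5 to 882 in the colon, with no overlap. FABP6, the ileal bile acid binding protein, exceeded 500 CPM in 3 of the 12 ileum libraries and was at 0 in LF 3. Summed colonocyte markers (6 genes) were 156 to 1204 CPM in the ileum and 44.8 to 6446 in the colon, so they overlapped. Colon H+N 1 and LF 2 stood apart, with 228 and 107 CPM of epithelial markers (4 genes) where the other 10 colon libraries had at least 2225. Ileum L+N 3 stood apart with 3665 CPM of adipocyte markers (5 genes) and 264 CPM of plasma cell markers (4 genes), where the ileum medians were 30.1 and 24175 CPM. Ileum LF 3, a library of the reference diet, stood apart with 43030 CPM of smooth muscle markers (7 genes), where the ileum median was 1716 and the next highest 9717. In such bulk tissue, fewer cells of a type and less RNA per cell cannot be told apart.

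Per kilobase of transcript, OAS2 was the most abundant of the 9 in the ileum and MX2 the least. Median levels in the ileum were 18.6 CPM per kilobase for OAS2, 16.5 for GBP2, 15.5 for MX1 and 12.7 for IFI44L, followed by 7.81 for IFIT3, 7.38 for ISG15, 5.89 for RSAD2, 4.96 for IFIT1 and 3.35 for MX2. The libraries of neighbouring genes in this order overlapped widely. In the colon GBP2 had the highest median, 26.1 CPM per kilobase, and MX2 again the lowest, 3.35. The spread over libraries was wider in the ileum than in the colon for 7 of the 9 genes. From the lowest to the highest ileum library RSAD2 spanned 22.4-fold, IFIT1 20.8-fold and ISG15 17.3-fold, against 5.51-fold, 5.11-fold and 4.2-fold in the colon. GBP2 and MX1 were the exceptions, at 7.75-fold and 9.21-fold in the ileum and 10.5-fold and 11.6-fold in the colon.

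**Figure D1:**
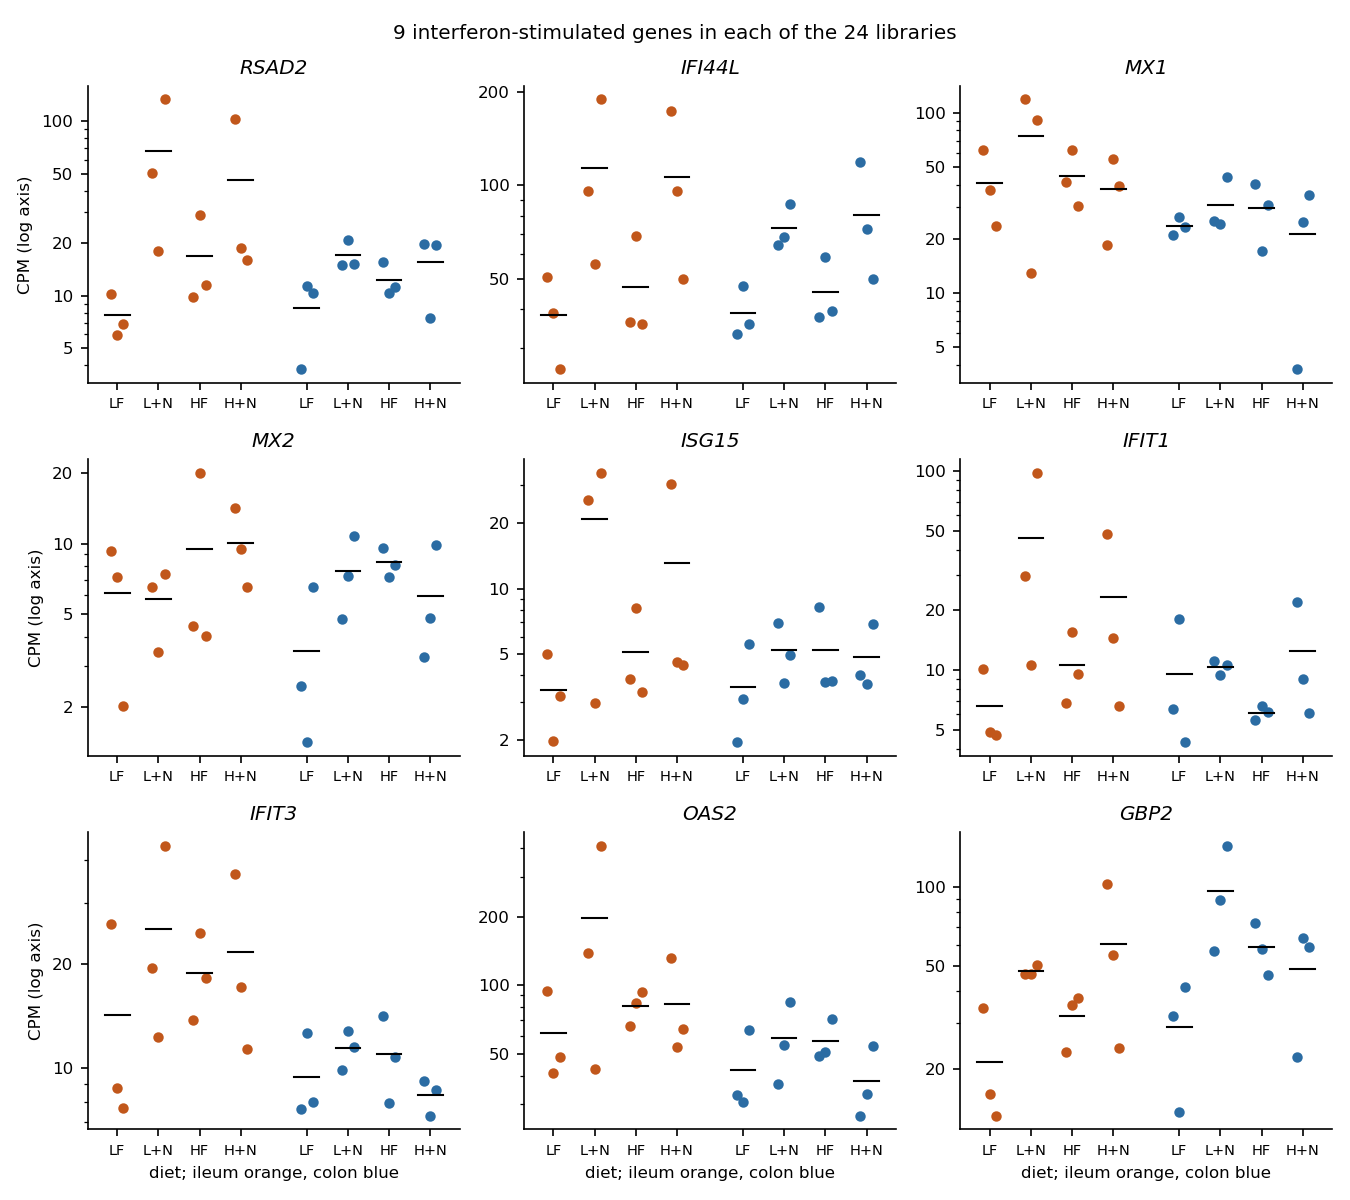
Each panel plots 1 gene, with CPM on a log axis against diet, and each point is 1 library (ileum orange, colon blue, 3 per group); bars are group means. In the ileum the means of RSAD2, ISG15 and IFIT1 with L+N and H+N are carried by 1 or 2 high libraries, and other libraries of those groups lie among the LF and HF points.

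The effect of NCG in the ileum was measured over both fibre levels, 6 libraries with NCG against 6 without. Of the 9 genes 8 were fitted higher with NCG, and the differences of RSAD2, ISG15, IFIT1, IFI44L and GBP2 were between 2.03-fold and 4.81-fold, but no gene passed an adjusted p of 0.05 (edgeR quasi-likelihood test, Benjamini-Hochberg over all genes). The median log2 difference of the 9 was 1.02, against -0.07 over all 15103 genes tested. In the same test 884 genes (5.85%) passed, 819 of them higher with NCG (5.42%), a share at which a list of 9 genes would hold less than 1 call. An unadjusted p under 0.05 was reached by 5 of the 9 and by 21.5% of all genes tested.

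RSAD2 encodes viperin, an enzyme that makes a chain-terminating nucleotide from CTP, and it had the largest difference. It measured 10.3, 5.93 and 6.93 CPM in the LF libraries 1 to 3, 9.86, 29.1 and 11.5 in HF, 50.7, 17.9 and 133 in L+N, and 102, 18.7 and 16.0 in H+N. The 3 highest libraries were all from diets with NCG, and the other 3 with NCG lay below HF 2. The log2 difference was 2.27 ± 0.61 (SE, adjusted p = 0.059 in edgeR). IFI44L, an interferon-induced protein of the cytosol, measured 50.6, 38.9 and 25.7 CPM in LF, 36.4, 68.7 and 35.9 in HF, 95.9, 55.8 and 189 in L+N, and 173, 95.9 and 49.9 in H+N. Of its 6 libraries with NCG, 4 were above every library without. Its log2 difference was 1.35 ± 0.38 (adjusted p = 0.066 in edgeR).

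ISG15 is a ubiquitin-like protein that is attached to newly made proteins, and its libraries fell into high and low ones. It measured 5.01, 1.98 and 3.19 CPM in LF and 3.83, 8.15 and 3.35 in HF, against 25.5, 2.97 and 34.2 in L+N and 30.4, 4.57 and 4.42 in H+N. Only L+N 1, L+N 3 and H+N 1 exceeded HF 2, while the other 3 libraries with NCG lay among those without. The log2 difference was 1.97 ± 0.67 (adjusted p = 0.126 in edgeR).

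The IFIT proteins bind viral RNA, IFIT1 by its foreign 5′ end and IFIT3 as a partner that stabilises IFIT1. IFIT1 measured 10.2, 4.91 and 4.72 CPM in LF, 6.80, 15.5 and 9.59 in HF, 29.8, 10.6 and 98.2 in L+N, and 48.6, 14.5 and 6.60 in H+N. The same 3 libraries were above all those without NCG, and the log2 difference was 1.95 ± 0.61 (adjusted p = 0.099 in edgeR). IFIT3 was flatter, with 7.70, 16.0 and 26.2 CPM as the lowest, median and highest without NCG and 11.4, 18.3 and 44.0 with NCG. Its log2 difference was 0.50 ± 0.43. OAS2, which makes the oligoadenylates that activate RNase L, had 41.2, 74.5 and 94.4 CPM without NCG and 42.7, 97.4 and 409 with NCG, and a log2 difference of 0.84 ± 0.48. The highest OAS2 value was that of L+N 3, and the next highest, 138 and 131 CPM, were those of L+N 1 and H+N 1.

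The MX proteins and GBP2 are large GTPases of the dynamin superfamily that act against viruses and, for GBP2, also against bacteria inside cells. GBP2 measured 34.3, 16.1 and 13.2 CPM in LF, 23.3, 35.2 and 37.5 in HF, 46.4, 46.2 and 50.1 in L+N, and 103, 54.9 and 24.2 in H+N. It was the most even of the 9 within L+N, and 5 of its 6 libraries with NCG were above every library without. Its log2 difference was 1.02 ± 0.34 (adjusted p = 0.116 in edgeR). MX1 differed least after MX2. It measured 61.9, 37.2 and 23.6 CPM in LF, 41.2, 62.0 and 30.4 in HF, 119, 12.9 and 91.6 in L+N, and 18.4, 55.8 and 39.3 in H+N, so the libraries with NCG held both its highest and its lowest values. The log2 difference was 0.29 ± 0.48. MX2 measured 9.27, 7.20 and 2.01 CPM in LF, 4.46, 20.1 and 4.0 in HF, 6.50, 3.44 and 7.44 in L+N, and 14.2, 9.46 and 6.55 in H+N. Its highest library was HF 2, without NCG, and the log2 difference was -0.02 ± 0.48.

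The calls were near the threshold for some of the 9 and moved with the tool. DESeq2 called 5 of them higher (RSAD2, IFI44L, IFIT1, ISG15 and GBP2), where it called 1290 of 15638 genes higher (8.25%). A single edgeR fit of all 24 libraries called RSAD2, IFI44L, IFIT1 and ISG15, where it called 830 of 15675 genes higher (5.3%). Leaving out H+N 3 gave 3 calls (RSAD2, IFI44L and GBP2) and leaving out L+N 2 gave 2 (RSAD2 and IFI44L). Without L+N 3, the library with the high adipocyte markers, the log2 difference of RSAD2 was 1.77 and that of OAS2 was 0.27. Without H+N 1 that of RSAD2 was 1.55 and that of ISG15 was 1.18.

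Across the genes the same ileum libraries were high. L+N 3 was the highest of the 12 for 6 of the 9 genes and among the 3 highest for 8. H+N 1 was among the 3 highest for 8, all but MX1, and L+N 1 for 5. At the other end, LF 3 was among the 3 lowest for all 9 and the lowest for 5. LF 3 also held the lowest T and NK marker sum of the ileum, 150 CPM, beside its high smooth muscle markers. Without LF 3 the NCG difference was 2.25 for RSAD2, 1.96 for ISG15, 1.87 for IFIT1, 1.26 for IFI44L and 0.91 for GBP2, and none of the 9 was called. The summed T and NK cell markers (11 genes) of the high libraries were 193 CPM in L+N 3, 618 in H+N 1 and 313 in L+N 1, within the ileum range of 150 to 1084. Their summed macrophage and dendritic cell markers (8 genes) were 322, 852 and 604 CPM, where the ileum median was 927. The part of cell makeup in the difference was not tested beyond a fit with the T and NK markers as a covariate, in which RSAD2 differed by 2.26 (adjusted p = 0.082 in edgeR).

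**Figure D2:**
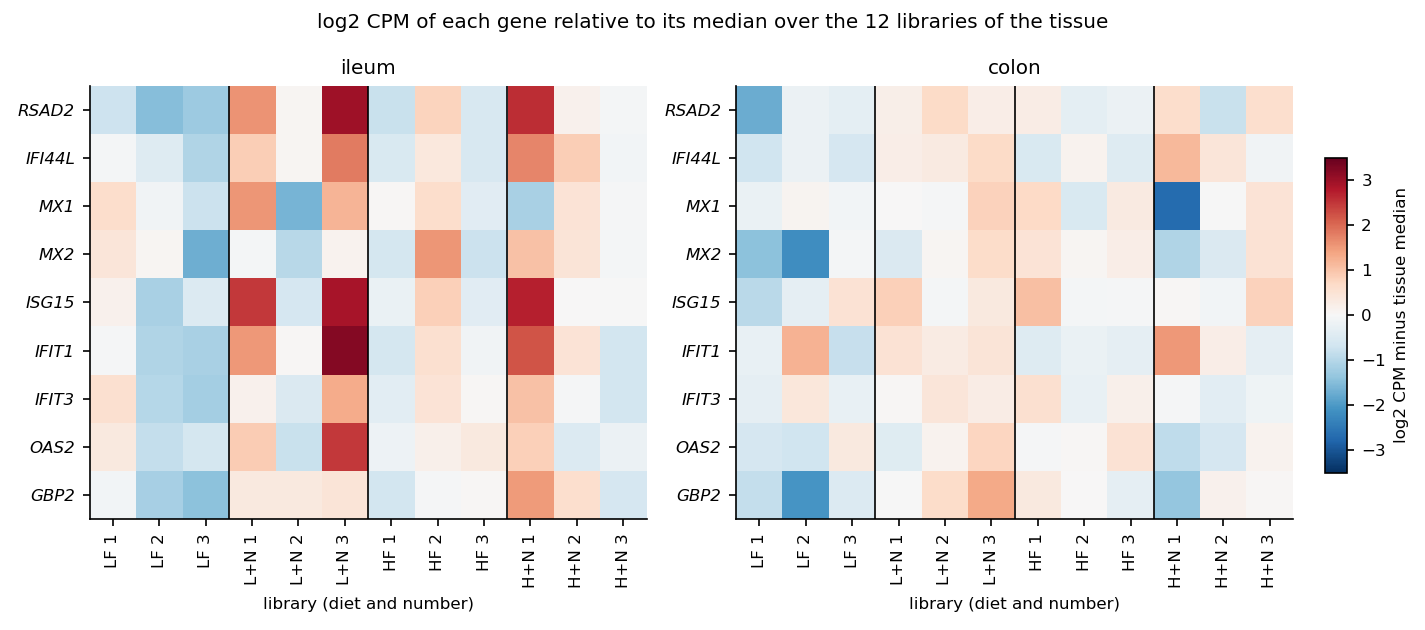
Rows are the 9 genes and columns the 12 libraries of each tissue; colour is log2 CPM minus the gene's median over the tissue's libraries, red above and blue below. In the ileum L+N 3, H+N 1 and L+N 1 are red for most genes and LF 3 is blue for all 9, and in the colon L+N 3 is above the median for all 9; MX1 is blue in H+N 1 of both tissues.

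The other 3 diets of the ileum were each compared with LF as the shared reference. L+N was fitted higher than LF for 8 of the 9 genes, with a median log2 difference of 1.59 against -0.05 over all genes. RSAD2 differed by 3.14 ± 0.90 (adjusted p = 0.085 in edgeR), IFIT1 by 2.83 ± 0.88, ISG15 by 2.63 ± 0.97 and OAS2 by 1.71 ± 0.69. None of the 9 passed, where 656 of 15103 genes did (4.34%; 640 higher, 4.24%). The 3 libraries of L+N lay wholly above those of LF for RSAD2, IFI44L, IFIT1 and GBP2, a separation that 15.3% of all genes showed. Adipocyte markers were also apart, at 55.6 to 3665 CPM in L+N and 16.6 to 28.4 in LF, and their part was not tested. DESeq2 called RSAD2, IFIT1, ISG15 and IFI44L in this comparison. A single fit of 24 libraries, and the fit without H+N 1, called RSAD2 alone, with adjusted p = 0.031 and 0.037 in edgeR.

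H+N was also fitted higher than LF for 8 of the 9, with a median of 1.44, and no gene of the 9 passed where 284 of all genes did (1.88%; 283 higher, 1.87%). RSAD2 differed by 2.53 ± 0.88, ISG15 by 1.91 ± 0.95 and GBP2 by 1.48 ± 0.48 (adjusted p = 0.191 in edgeR for GBP2, the smallest of the 9). Only RSAD2 had its 3 H+N libraries above the 3 of LF, which 9.57% of all genes did. DESeq2 called RSAD2. Without H+N 1 the RSAD2 difference was 1.11 and that of ISG15 0.34, so this library decided the size of both.

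HF alone differed from LF in the ileum by at most 1.14 ± 0.85 (RSAD2), with a median of 0.60 over the 9 and no call among the 9 or among all 15103 genes (0%). The effect of fibre over both NCG levels was between -0.44 (MX1, OAS2) and 0.70 (MX2), with a median of 0.08. The interaction of NCG and fibre was fitted negative for 8 of the 9, with a median of -1.19, the NCG difference being smaller on the high-fibre diet. Its standard errors were 0.67 to 1.30 and the smallest adjusted p was 0.872 in edgeR. No gene at all passed for fibre or the interaction, while 794 and 672 of 15103 had an unadjusted p under 0.05. These 2 numbers include none of the 9.

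In the colon none of the 9 genes passed for any diet comparison. With NCG, IFI44L had the largest fitted difference, 0.88 ± 0.23 (adjusted p = 0.229 in edgeR). It measured 33.3, 47.4 and 35.7 CPM in LF, 37.8, 59.1 and 39.6 in HF, 64.4, 68.1 and 87.1 in L+N, and 119, 72.4 and 49.9 in H+N. Of its 6 libraries with NCG, 5 were above every one without. GBP2 differed by 0.74 ± 0.35, RSAD2 by 0.69 ± 0.32 and IFIT1 by 0.58 ± 0.40, while OAS2, IFIT3 and MX1 differed by -0.05, -0.04 and -0.03. The median of the 9 was 0.34 against 0.06 over all 15075 genes, and neither any of the 9 nor any other gene passed (0%, with 1863 genes at an unadjusted p under 0.05).

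DESeq2 called 466 genes of 15328 for NCG in the colon (3.04%), IFI44L among them. With T and NK markers as a covariate edgeR called 2118 of 15075 (14.0%), with IFI44L at 0.99 (adjusted p = 0.012) and IFIT1 at 0.94 (adjusted p = 0.015). Those markers summed to 46.6 to 591 CPM in the colon libraries with NCG and 27.5 to 424 without. Without colon H+N 1 and LF 2, the libraries low in epithelium, no gene of the 9 was called, IFI44L differed by 0.76 (adjusted p = 0.059 in edgeR), and 464 of 15174 genes were called.

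RSAD2 in the colon measured 3.8, 11.3 and 10.3 CPM in LF, 15.5, 10.3 and 11.2 in HF, 15.0, 20.9 and 15.3 in L+N, and 19.9, 7.48 and 19.6 in H+N. Its highest colon value was below 3 of the ileum values with NCG. GBP2 measured 31.9, 13.7 and 41.4 CPM in LF, 72.6, 57.9 and 46.1 in HF, 56.8, 89.6 and 144 in L+N, and 22.3, 63.9 and 59.1 in H+N. The 3 L+N libraries lay above those of LF for RSAD2, IFI44L and GBP2, as they did for 10.9% of all genes. Colonocyte markers were apart in the same direction, at 2363 to 2802 CPM in L+N and 44.8 to 1645 in LF, and erythroid markers (2 genes) in the other, at 12.3 to 15.7 against 33.9 to 187. Endothelial markers (4 genes) were also lower in L+N, at 376 to 457 CPM against 482 to 650. L+N against LF gave 1.75 ± 0.51 for GBP2 (adjusted p = 0.26 in edgeR), and DESeq2 called it at 0.035. The GBP2 difference was 0.85 with the T and NK covariate and 1.40 without the libraries low in epithelium, and the part of the colonocyte, erythroid and endothelial markers was not tested.

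All 9 genes overlapped between the 6 colon libraries with NCG and the 6 without. ISG15 had 1.95, 3.73 and 8.22 CPM as the lowest, median and highest without NCG and 3.62, 4.47 and 6.97 with NCG, a far narrower range than in the ileum. IFIT1 had 4.33, 6.26 and 18.0 CPM without NCG and 6.11, 10.03 and 22.1 with NCG, and IFIT3 7.65, 9.39 and 14.2 against 7.30, 9.54 and 12.9. OAS2 had medians of 49.9 CPM without NCG and 45.4 with NCG, MX1 24.9 and 25.0, and MX2 6.88 and 6.03, so these 3 medians differed by little or were lower with NCG.

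HF against LF gave 1.25 ± 0.58 for MX2 and 1.01 ± 0.50 for GBP2, whose HF libraries were all above those of LF, which held for 16.5% of all genes. Tissue markers were apart between the same libraries, smooth muscle at 1507 to 2261 CPM in HF and 28390 to 100000 in LF, and colonocytes at 2827 to 6446 and 44.8 to 1645. Goblet cell (5206 to 13140 against 96.2 to 4309 CPM), plasma cell (9190 to 9530 against 537 to 8171) and small-intestinal enterocyte markers (586 to 882 against 10.5 to 443) were also higher in HF without overlap. Erythroid markers were lower, at 2.34 to 32.6 CPM against 33.9 to 187. Their part was not tested. With the T and NK covariate MX2 differed by 0.58 and GBP2 by 0.29, and without the libraries low in epithelium by 0.88 and 0.68. The 2 libraries lowest in MX2 were LF 2 and LF 1, at 1.41 and 2.46 CPM. H+N against LF gave 1.05 ± 0.32 for IFI44L, whose libraries did not overlap, as held for 4.19% of all genes. Erythroid markers were apart there too, at 2.4 to 15.7 CPM in H+N and 33.9 to 187 in LF, and their part was not tested. The effect of fibre over both NCG levels was between -0.20 (IFIT1) and 0.45 (MX2), and the interaction was largest for GBP2, at -2.01 ± 0.70. No gene of the 9 and none of 15075 passed in any of these colon comparisons (0%). An unadjusted p under 0.05 was reached by 2010 genes for L+N, 3071 for HF, 1348 for H+N, 692 for fibre and 2264 for the interaction.

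Between colon and ileum 3 of the 9 genes were called, too few to be set apart from the share called over all genes. IFIT3, OAS2 and RSAD2 were lower in the colon by 1.97-fold, 1.97-fold and 1.94-fold, and 8 of the 9 were fitted lower. The median log2 difference was -0.84 against -0.03 over all 15675 genes, of which 4453 were called (28.4%), 2496 lower (15.9%) and 1957 higher (12.5%). IFIT3 had a median of 17.7 CPM in the ileum and 9.54 in the colon, 7 ileum libraries were above every colon library, and its log2 difference was -0.97 ± 0.25 (adjusted p = 0.0076 in edgeR). OAS2 had medians of 74.5 and 49.9 CPM and a log2 difference of -0.98 ± 0.29 (adjusted p = 0.018 in edgeR). RSAD2 had medians of 17.0 and 13.2 CPM and a log2 difference of -0.96 ± 0.35 (adjusted p = 0.0495 in edgeR).

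MX1 (-0.87 ± 0.35, adjusted p = 0.067 in edgeR), ISG15 (-0.84 ± 0.39), IFIT1 (-0.83 ± 0.37), MX2 (-0.35 ± 0.33) and IFI44L (-0.27 ± 0.23) did not pass. GBP2 was the one gene of the 9 fitted higher in the colon, at 0.51 ± 0.26 (adjusted p = 0.147 in edgeR), with medians of 57.4 CPM in the colon and 36.3 in the ileum. RSAD2 kept its call in 5 of the 24 fits that left out 1 library, with adjusted p up to 0.145 (without ileum H+N 1). IFIT3 and OAS2 kept theirs in all 24. RSAD2 also lost its call with RLE scaling (adjusted p = 0.058 in edgeR), no filter (0.062) and the replicate block (0.075). The same held for RSAD2 with the length trend removed (0.061), with limma-voom (0.189) and without the FABP6 libraries (0.109). With ileum and colon libraries of the same diet and number as a block, all 3 calls were lost (IFIT3 at 0.055, OAS2 at 0.056 and RSAD2 at 0.191, adjusted in edgeR). With the T and NK covariate OAS2 had adjusted p = 0.062 and RSAD2 0.081, while IFIT1 and GBP2 were called. Without ileum L+N 3, colon H+N 1 and colon LF 2 the same exchange was seen, with IFIT3 at 0.015, OAS2 at 0.095 and RSAD2 at 0.102. LIPA, which overlaps the IFIT pair, was itself lower in the colon (log2 difference -0.66 ± 0.17, adjusted p = 0.0077 in edgeR), and its part in the IFIT counts was not tested.

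The NCG difference was fitted lower in the colon than in the ileum for 8 of the 9, all but MX2. Colon minus ileum it was -1.76 ± 0.77 for ISG15 (unadjusted p = 0.034 in edgeR) and -1.60 ± 0.71 for RSAD2 (unadjusted p = 0.035 in edgeR). Every adjusted p was at 1.0, and no gene of 15675 passed (0%), with 469 at an unadjusted p under 0.05. The same held for the fibre effect (0%, 437 genes), where the 9 lay between -0.46 and 0.33.

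**Figure D3:**
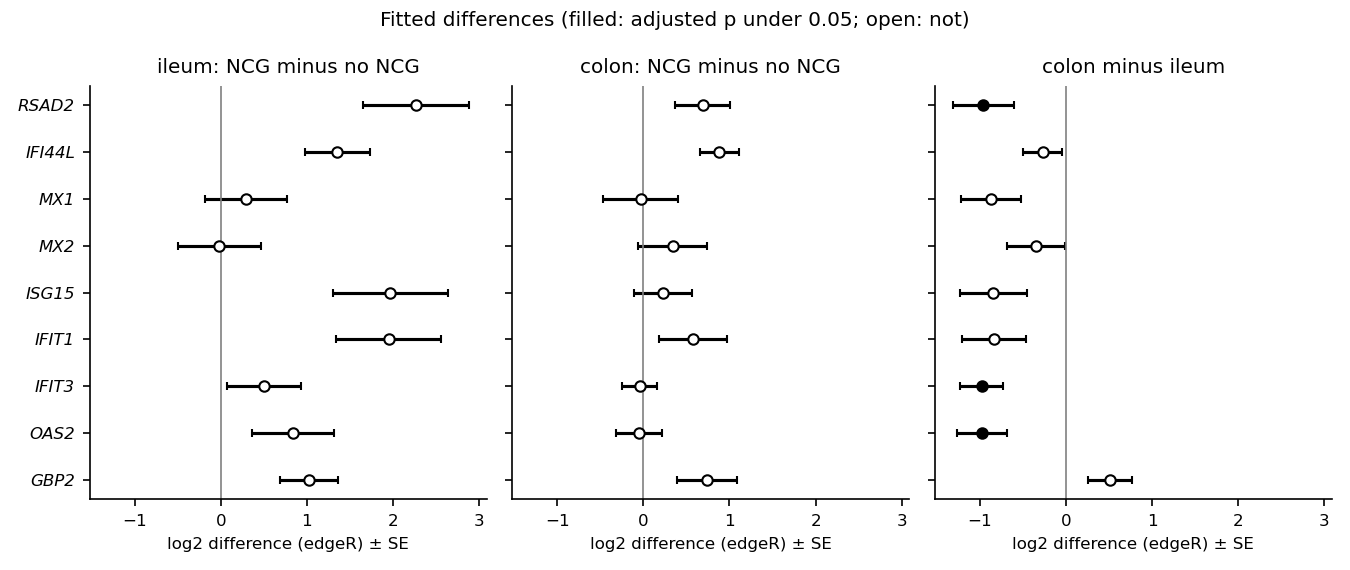
Points are fitted log2 differences from edgeR with bars of 1 standard error, for NCG in the ileum (6 against 6 libraries), NCG in the colon (6 against 6) and colon against ileum (12 against 12). Only IFIT3, OAS2 and RSAD2 in the last panel are filled, the calls at an adjusted p under 0.05; in the ileum 5 genes lie above 1 with wide bars.

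The 9 genes varied together in the ileum and less so in the colon. Over the 12 ileum libraries the 36 pairwise Pearson correlations of log2 CPM had a median of 0.756, from 0.0345 for MX1 with GBP2 to 0.969 for IFIT1 with RSAD2. In the colon the median was 0.28, from -0.575 for OAS2 with IFIT1 to 0.854 for GBP2 with MX2. These are descriptions, since the libraries share diets, depth and tissue makeup. In the colon IFIT1 ran most against OAS2 (-0.575), MX2 (-0.569), MX1 (-0.539) and GBP2 (-0.41). It was highest in H+N 1 (22.1 CPM) and LF 2 (18.0 CPM), the libraries low in epithelial and high in smooth muscle markers, in which GBP2 had its 2 lowest values and MX2 its lowest and the third from the bottom. OAS2 had 26.7 and 30.7 CPM in these libraries. MX1 was lowest in H+N 1 but at 26.5 CPM in LF 2, where its colon median was 25.0.

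By the correlation of log2 CPM with the mean standardised level of the 9 over the 12 libraries, the genes most alike in the ileum were CMPK2 (0.974), IFI44 (0.971), RTP4 (0.969), DHX58 (0.961) and HERC6 (0.945), each of which is itself interferon-stimulated. CMPK2 lies next to RSAD2 and IFI44 next to IFI44L. Of the 50 most alike genes 16 (32.0%) were on the lists of other interferon genes, which held 0.616% of the genes tested. These 16 were 17.2% of the list genes tested. In the colon the most alike were LOC110260307 (0.873), SHD (0.872), ARHGEF18 (0.847), GMFB (0.842) and CD200R1 (0.841), none of them on those lists, and 3 of the 50 (6.0%) were list genes, or 3.30% of the list. Single genes correlated with the mean at 0.501 (MX1) to 0.963 (IFIT1) in the ileum and at -0.006 (IFIT1) to 0.781 (RSAD2) in the colon.

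MX1 parted from the other 8 in ileum H+N 1 and from part of them in colon H+N 1. In ileum H+N 1 MX1 had 203 counts, 18.4 CPM, or 0.446 of the median of the other 11 ileum libraries, while all 8 others were above their medians there, at a median ratio of 3.17. In colon H+N 1 it had 57 counts, 3.79 CPM, or 0.151 of the median of the other 11, and 4 of the 8 others were above their medians. OAS2 was also at its lowest colon value there, 26.7 CPM, and GBP2 (22.3 CPM) and MX2 (3.26 CPM) were among their 3 lowest. The ratio of MX1 to RSAD2 in CPM was 0.18 and 0.191 in the H+N 1 libraries and at least 0.688 in the other 22. Ileum L+N 2 held the lowest ileum value of MX1, 12.9 CPM, where the other 8 had a median ratio of 0.861 to their medians, and its colon namesake was at 24.1 CPM, near the median. Among 15675 genes 182 (1.16%) were at or below 0.5 of the median in ileum H+N 1 and at or below 0.2 in colon H+N 1, limits chosen after the MX1 values were seen. Without the H+N 1 library MX1 differed by 0.45 with NCG in the ileum and by 0.21 in the colon, where its sign turned.

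**Figure D4:**
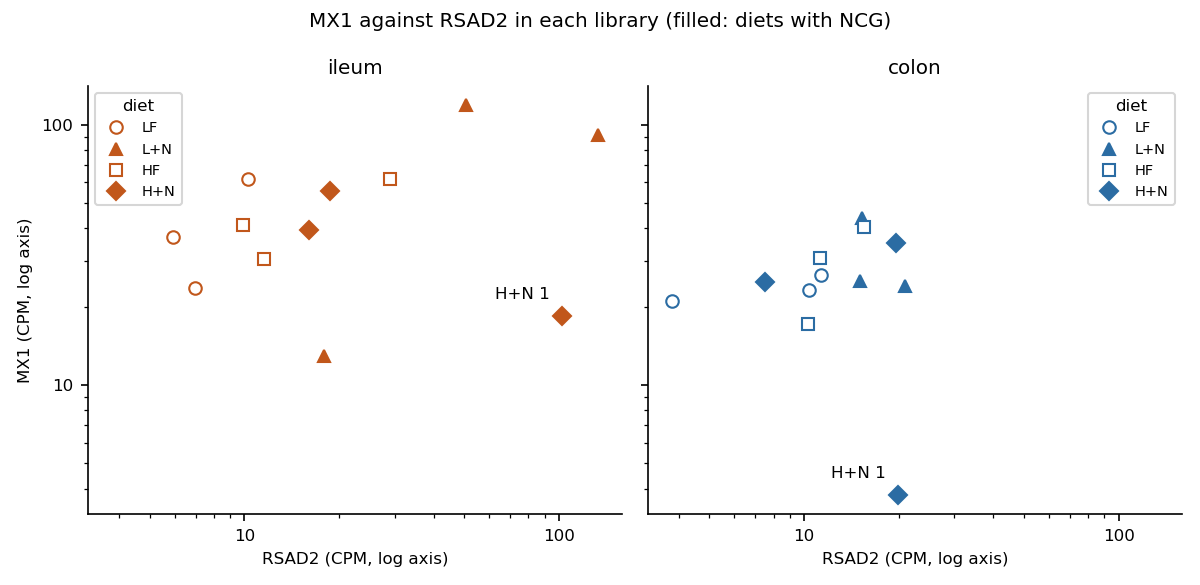
MX1 is plotted against RSAD2 for each library, both in CPM on log axes, with a symbol per diet and filled symbols for diets with NCG. The H+N 1 library lies below the other points of similar RSAD2 in the ileum and in the colon, at 18.4 and 3.79 CPM of MX1.

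The rest of the interferon system was read from 7 further lists, of which 93 genes were tested in the ileum. With NCG 10 of them (10.8%) were higher and none lower, beside 5.85% called among all genes. Of 13 ligands listed, 9 were in the gene table and only 3 passed the filter, so their calls give no share of all ligands. Of these 3, 2 were called, IFNE, an epithelial type I interferon (1.65 ± 0.34, adjusted p = 0.015 in edgeR), and IFNA1 (2.26 ± 0.46, adjusted p = 0.016 in edgeR). IFNE measured 1.77, 1.98 and 0.624 CPM in LF, 2.35, 2.51 and 3.26 in HF, 11.2, 6.13 and 10.2 in L+N, and 6.62, 2.77 and 3.72 in H+N. IFNA1 rested on few reads, 1 to 3 counts per library in LF and HF, 12, 9 and 26 in L+N, and 3, 9 and 14 in H+N. Its reads could be split with near-identical alpha interferon genes. IFNA1 passed the filter through libraries with NCG alone, as 1 to 3 counts are too few, so its call is not independent of the filter. IFNB1 had 0 counts in all 24 libraries, and a count of 0 allows up to 3.

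Upstream of the 9 genes, JAK2, a kinase of the interferon gamma receptor, was called higher (1.57 ± 0.17, adjusted p = 0.0020 in edgeR) as 1 of 12 JAK-STAT and IRF factors. Of 12 sensors and their adaptors IFIH1, which detects long double-stranded RNA (2.0 ± 0.32, adjusted p = 0.0045 in edgeR), and TBK1, the kinase that activates IRF3 (1.06 ± 0.13, adjusted p = 0.0024 in edgeR), were called. Neither the 6 receptors, nor 14 interferon gamma targets, nor 7 feedback inhibitors held a call. By smallest p these lists gave IFNLR1 (0.46) and IL10RB (-0.10), GBP1 (0.67) and WARS (-0.30), and PIAS1 (0.78, adjusted p = 0.051 in edgeR) and PIAS4 (-0.13).

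Among 39 further interferon-stimulated genes 5 rose, with a list median of 0.27. They were PARP14 (1.31 ± 0.25), EIF2AK2, the RNA-activated kinase PKR (1.25 ± 0.30), DTX3L (1.05 ± 0.26), PNPT1 (1.0 ± 0.20) and PARP9 (0.97 ± 0.24), with adjusted p between 0.011 and 0.040 in edgeR. JAK2, TBK1, IFIH1, PARP14 and PNPT1 were called in all 12 fits without 1 library, IFNE in 11 and IFNA1 in 10. DTX3L, PARP9 and EIF2AK2 were called in 5, 4 and 3 of them, with adjusted p up to 0.112, 0.117 and 0.108. Other settings also ended calls. EIF2AK2 was lost with the replicate block (adjusted p = 0.070 in edgeR), with limma-voom (0.055), with the length trend removed (0.091) and without the FABP6 libraries (0.075). IFNE was lost in one fit of 24 libraries (0.093), IFNA1 in that fit (0.056) and without the FABP6 libraries (0.105), and PNPT1 (0.075) and PARP9 (0.055) without the FABP6 libraries. DTX3L and PARP9 were lost with limma-voom (0.054 and 0.052), and DTX3L with the length trend removed (0.059). JAK2, TBK1, IFIH1 and PARP14 kept the call under all 9 alternatives other than the omissions. Standard errors were 0.13 to 0.46 for the 10 called genes and 0.34 to 0.67 for the 9 effector genes. Because the 10 were picked by the same test, these ranges cannot show why the 9 were not called.

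Against LF, L+N called 9 list genes (9.68%), those 10 without EIF2AK2, and H+N called 3 (3.23%), JAK2 (1.56 ± 0.24), TBK1 (1.08 ± 0.19) and IFIH1 (2.05 ± 0.45). In L+N IFIH1 differed by 2.90 ± 0.46 and JAK2 by 2.13 ± 0.25. Of 12 fits without 1 library, JAK2 and TBK1 kept the L+N call in 12, IFIH1 and IFNE in 11, DTX3L in 9, PARP14 and PNPT1 in 7, PARP9 in 3 and IFNA1 in 2. The H+N call was kept in 7 for JAK2, 5 for TBK1 and 3 for IFIH1. With only the 6 libraries compared in the fit, the 11 of these calls that could be tested were lost, with adjusted p of 0.054 to 0.143 in edgeR, IFNA1 having no value there. The replicate block, the T and NK covariate and the removal of the FABP6 libraries each ended the 3 of H+N. IFIH1 also lost the H+N call with no filter (0.053), limma-voom (0.098) and the length trend removed (0.058), and JAK2 in one fit of 24 libraries (0.067). IFNA1 lost the L+N call with no filter (0.059), limma-voom (0.068), the replicate block (0.073), one fit (0.118) and without the FABP6 libraries (0.152). IFNE lost it in one fit (0.081), and PARP9 (0.054) and PNPT1 (0.065) without the FABP6 libraries. None of 91 list genes was called for any diet comparison in the colon. IFIH1 differed there by 1.0 ± 0.17 with NCG (adjusted p = 0.188 in edgeR) and JAK2 by 1.06 ± 0.35. Of the 38 further interferon-stimulated genes tested there, 30 were fitted higher and 8 lower with NCG. Their median was 0.27, against 0.06 over all genes. Ileal values were 28 higher, 11 lower and 0.27 against -0.07. For L+N against LF the list median was 0.79 for colon libraries (37 of 38 higher) and 0.66 for ileal ones (32 of 39). No list gene of 93 passed for the tissue difference of the NCG effect, so these calls do not set the tissues apart.

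**Figure D5:**
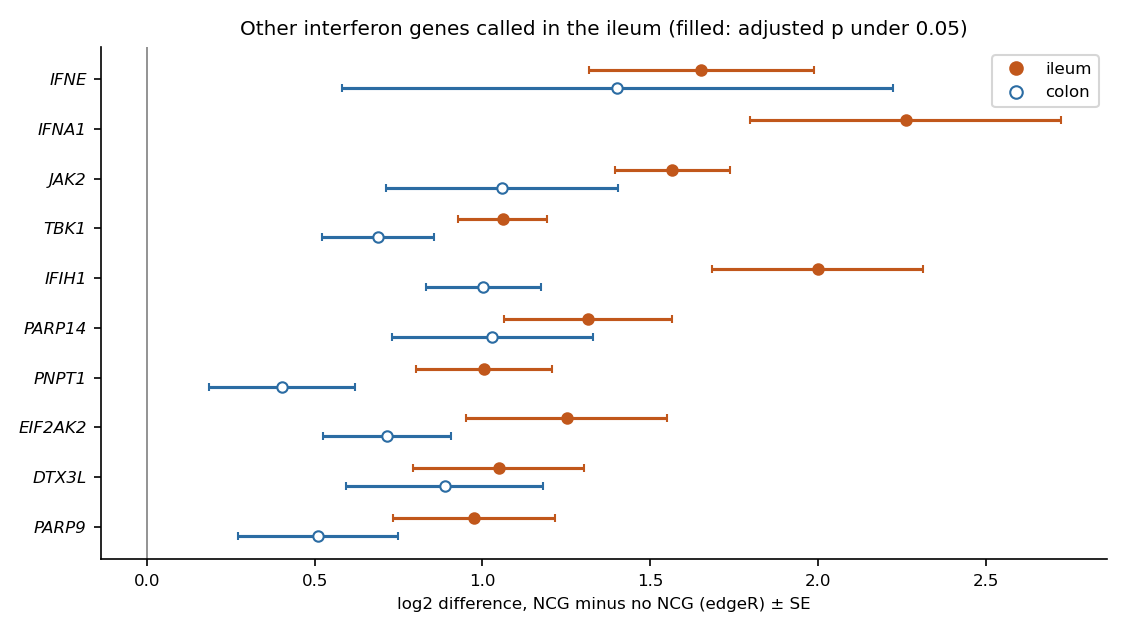
The 10 interferon genes outside the 9 that were called for NCG in the ileum, with the fitted log2 difference from edgeR and bars of 1 standard error in the ileum (orange) and the colon (blue). All ileum points are filled (adjusted p under 0.05) and no colon point is; IFNA1 was too low to be tested in the colon and has no point there.

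Between the tissues 23 of 93 list genes were called (24.7%), 20 lower in the colon and 3 higher. Over all genes 28.4% were called, 15.9% lower and 12.5% higher, so the share called in the lists was not above that of all genes. The interferon lambda receptor chain IFNLR1 was 4.09-fold lower and its partner IL10RB 1.64-fold lower, IFNE 8.5-fold lower and IRF3, a factor that induces type I interferon, 1.82-fold lower, with IRF2 at 1.31-fold. Of 12 sensors TLR7 (1.97-fold), IFIH1 (1.51-fold) and TLR9 (2.14-fold), and of 7 feedback inhibitors the phosphatase genes PTPN2 (1.44-fold) and PTPN6 (1.85-fold), were lower in the colon. Among further interferon-stimulated genes 10 of 39 were lower, led by OAS1 (3.63-fold), CNP (1.43-fold), HELZ2 (12.7-fold), HERC5 (2.22-fold) and LGALS3BP (1.96-fold). IFITM1 (7.83-fold) and IFITM3 (1.54-fold), membrane proteins that block virus entry, were higher in the colon, as was the adaptor MAVS (1.29-fold). Of 24 fits without 1 library, TLR9 and PTPN6 kept their calls in 7 and 8, HELZ2 lost its call without ileum HF 2 (adjusted p = 0.063 in edgeR), and IFIH1 and IRF2 lost theirs without ileum LF 1 (adjusted p = 0.055 in edgeR for both). With the block of diet and number IL10RB (0.075), HERC5 (0.094), LGALS3BP (0.068), IFIH1 (0.064), IRF2 (0.090) and PTPN6 (0.073) lost their calls, and with the T and NK covariate IL10RB (0.052), HELZ2 (0.077), MAVS (0.086), IFIH1 (0.089), IRF2 (0.198), TLR9 (0.359) and PTPN6 (0.149). Without the FABP6 libraries HERC5 (0.052), MAVS (0.082), IFIH1 (0.125), IRF2 (0.109), TLR9 (0.264) and PTPN6 (0.212) lost theirs. None of the 14 interferon gamma targets passed, CXCL11 (1.45) and SERPING1 (-0.31) having the smallest p. The small-intestinal enterocyte markers also separated the tissues, and their part in these differences was not tested.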

How the data were processed

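Poly(A) RNA of 12 ileum and 12 colon libraries had been sequenced paired-end. The submitters' processing notes name fastp 0.22.0, HISAT2 2.1.0, HTSeq 0.9.1 and the build Sscrofa11.1, without parameters. The authors deposited 1 table per gene with raw counts, FPKM and gene length in bases, per the file headers. The deposited FPKM follow from the counts and lengths to a relative difference of 2.1e-07 and were not used for tests. All 20674 gene IDs matched RefSeq Sscrofa11.1, 20663 with the same coordinates.

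Counts were filtered with filterByExpr, scaled by TMM and tested in R 4.3.3 with the quasi-likelihood test of edgeR 4.0.16, in 1 fit per tissue with its 4 diets (12 libraries) and 1 fit of 24 libraries for comparisons between tissues. P-values were two-sided and adjusted by Benjamini-Hochberg over all genes tested, with a threshold of 0.05. The effects of NCG and of fibre are means over the levels of the other factor. CPM are on the TMM scale of the 24 libraries, and log2 CPM has a prior count of 2. Errors are approximate standard errors, worked back as the absolute log2 difference divided by the square root of its F statistic. The scripts were tested on simulated data.

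All 9 effector genes are described in every comparison. Of the other interferon lists up to 5 called genes per list and direction are named by smallest adjusted p, or 2 as values where none was called. The 5 genes most alike per tissue were named by Pearson's r. The genes, lists and rules were chosen with earlier results of these data known. Alternatives were DESeq2 1.42.0, limma 3.58.1 (voom), RLE scaling, no filter, removal of a trend with gene length, replicate blocks, a T and NK marker covariate, other sets of libraries in the fit, removal of the libraries above 500 CPM of FABP6, and each library left out. Removal of the 3 libraries that stand apart by markers was chosen after seeing the data. They have under 500 CPM of epithelial or over 1000 CPM of adipocyte markers.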

Additional observations from a re-analysis of the deposited data

How the results depend on the processing

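The number of the 9 effector genes called moved with the processing. For NCG in the ileum it was 0, against 5 with DESeq2, 4 in one fit of 24 libraries and 0 to 3 when each library was left out. For L+N against LF in the ileum it was 0, against 4 with DESeq2, 1 in one fit and 0 to 1 over the omissions. DESeq2 called 1 in each of ileal H+N, colonic NCG and colonic L+N, and the T and NK covariate called 2 for NCG in the colon. Between the tissues 3 were called, against 2 to 5 over the omissions. The cause was not tested. Over all genes DESeq2 called 1739 for NCG, 1573 for L+N and 896 for H+N in the ileum, and 466 for NCG, 616 for L+N, 1036 for HF and 183 for H+N in the colon, where edgeR called none. For H+N in the ileum other settings called 0 (the 6 libraries compared alone, or FABP6 libraries removed), 22 (T and NK covariate), 43 (one fit), 171 (limma-voom) and 189 (length trend), and the omissions 0 to 480. The omissions called 514 to 958 genes for NCG and 133 to 748 for L+N in the ileum, and 0 to 292 for NCG in the colon. The 6 libraries alone called 0 for L+N in the ileum and 288 for HF in the colon, and 282 were called for L+N in the colon without the libraries that stand apart.

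Replicate numbers were not taken as a pairing. Deviations of ileum and colon libraries of the same diet and number correlated at -0.368 to 0.307, with 5 of 12 over 0.1, and 4 of 12 libraries correlated best with their own number. Within a tissue 8 of 18 pairs across diets were over 0.1 in the ileum and 7 of 18 in the colon. With the replicate block none of the 9 was called for any diet comparison, and 665 genes were called for NCG and 0 for H+N in the ileum. With the replicate block of diet and number, 0 of the 9 were called between the tissues. Signs turned with the replicate block for ileum L+N against LF (MX2 0.22), ileum NCG (MX2 0.18), the ileum interaction (MX2 -0.08), ileum fibre (ISG15 0.04), and with that of diet and number for the tissue difference of the fibre effect (MX1 -0.13, RSAD2 0.05).

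Fitted log2 differences that changed sign were all of genes not called in that comparison. Without the libraries that stand apart by markers, chosen after seeing the data, these were the tissue difference of the NCG effect (MX1 0.03), colon HF against LF (IFIT1 0.19), colon H+N against LF (IFIT3 0.03, MX1 0.44), colon NCG (IFIT3 0.04, MX1 0.26), the colon interaction (IFIT1 -0.65), colon fibre (MX1 0.18), the tissue difference of the fibre effect (IFI44L -0.29, OAS2 -0.20). With the T and NK covariate they were the tissue difference of the NCG effect (MX2 -0.14), colon HF against LF (IFIT1 0.50, MX1 -0.52, OAS2 -0.09), colon L+N against LF (MX1 -0.50, OAS2 -0.12), colon NCG (IFIT3 0.04), the colon interaction (IFIT1 -0.87, MX1 0.03), colon against ileum (MX2 0.11), colon fibre (GBP2 -0.19, IFIT1 0.06), the tissue difference of the fibre effect (MX2 0.11), ileum L+N against LF (MX2 0.32), ileum NCG (MX2 0.20), the ileum interaction (MX2 -0.25), ileum fibre (IFI44L -0.05, IFIT3 -0.23). Without the libraries above 500 CPM of FABP6 they were the tissue difference of the NCG effect (MX2 -0.46), colon against ileum (MX2 0.04), the tissue difference of the fibre effect (MX2 0.09), ileum HF against LF (MX2 -0.11), ileum L+N against LF (MX2 0.37), ileum NCG (MX2 0.83), ileum fibre (ISG15 0.07). With limma-voom they were colon NCG (IFIT3 0.00), the tissue difference of the fibre effect (IFIT1 0.04, MX1 -0.17, RSAD2 0.09), ileum L+N against LF (MX2 0.04), ileum NCG (MX2 0.13), with the length trend removed colon NCG (IFIT3 0.02), colon fibre (GBP2 -0.00), ileum L+N against LF (MX2 0.02), ileum NCG (MX2 0.08), and with no filter the tissue difference of the fibre effect (IFIT1 0.00).

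When each library was left out in turn, the values that crossed 0 had these ranges: the tissue difference of the NCG effect (MX2 -0.25 to 0.73), colon HF against LF (IFI44L -0.02 to 0.40, IFIT1 -1.02 to 0.19, IFIT3 -0.02 to 0.49), colon H+N against LF (IFIT1 -0.34 to 1.21, IFIT3 -0.30 to 0.10, MX1 -0.70 to 0.35, OAS2 -0.49 to 0.24), colon L+N against LF (IFIT1 -0.24 to 0.96), colon NCG (IFIT3 -0.14 to 0.08, MX1 -0.30 to 0.21, OAS2 -0.22 to 0.15), the colon interaction (IFI44L -0.49 to 0.17), colon fibre (GBP2 -0.16 to 0.19, IFI44L -0.02 to 0.30, IFIT1 -0.55 to 0.23, IFIT3 -0.24 to 0.02, ISG15 -0.02 to 0.46, MX1 -0.39 to 0.14, OAS2 -0.27 to 0.09), the tissue difference of the fibre effect (IFI44L -0.21 to 0.36, IFIT1 -0.63 to 0.53, IFIT3 -0.54 to 0.10, ISG15 -0.01 to 1.04, MX2 -0.55 to 0.33, OAS2 -0.23 to 0.57, RSAD2 -0.56 to 0.62), ileum HF against LF (IFI44L -0.04 to 0.54, MX1 -0.14 to 0.56, MX2 -0.49 to 1.07), ileum H+N against LF (IFIT3 -0.04 to 1.33, MX1 -0.50 to 0.25, OAS2 -0.11 to 0.82), ileum L+N against LF (MX2 -0.46 to 0.35), ileum NCG (MX2 -0.22 to 0.56), the ileum interaction (GBP2 -0.97 to 0.05, IFI44L -1.04 to 0.13, MX2 -0.32 to 1.23), ileum fibre (IFI44L -0.20 to 0.38, IFIT1 -0.75 to 0.44, IFIT3 -0.23 to 0.46, ISG15 -0.84 to 0.23, OAS2 -0.70 to 0.13, RSAD2 -0.44 to 0.76).

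Few reads limit the lowest values. MX2 had 21 counts in colon LF 2 and 29 in ileum LF 3, and ISG15 had 25 in ileum LF 2 and 35 in colon LF 1. MX1 in colon H+N 1 rests on 57 counts and IFNA1 on 1 to 26 per ileum library. With 3 libraries per group, the ileal NCG fit gave standard errors of 0.34 to 0.67 for the 9.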

Other observations

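Reads were summed over 31 gene models of type I interferons named alpha, beta, delta or omega. The alpha genes among them are near-identical, so reads could be split between them. In the ileum the sum was 28 to 49 counts (1.67 to 3.45 CPM) in the 6 libraries without NCG and 54 to 217 counts (3.64 to 14.0 CPM) in the 6 with NCG, without overlap. L+N 3, the library with the most adipocyte markers and the highest value for 6 of the 9 effector genes, had the highest sum. In the colon the sums overlapped, at 17 to 115 counts without NCG and 32 to 210 with NCG. The highest colon values, 210 counts in H+N 1, 126 in L+N 1 and 115 in LF 2, included both libraries low in epithelial markers. This sum was chosen after values of these data were known and was not tested. The share of all genes that separate in this way between the ileum libraries with and without NCG was not counted.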
